A study of Mus musculus with 3 samples.

Results

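The experiment described here is the siRNA knockdown of Phf1 in mouse embryonic fibroblasts early in reprogramming, compared with a non-targeting siRNA (nt) and, as a second control, with mock transfection (Mock). Libraries were chosen by the condition in their column name, which gave 3 siPhf1, 3 nt and 6 Mock libraries out of 129 in the whole series. One Mock library of replicate 3 was left out because the second deposited table does not hold it, so 5 Mock libraries were used, and 127 libraries of all conditions entered the fit. All groups were primary BL6 wild-type fibroblasts carrying the tet-STEMCCA lentiviral cassette for Oct4, Sox2, Klf4 and c-Myc and rtTA, induced with doxycycline at 2 µg/mL. siPhf1 and nt cells had received 40 nM of siRNA before induction, and RNA was taken in bulk on day 6. CEL-Seq2 was used, which counts transcript 3′ ends by unique molecular identifiers. The rest of the screen holds knockdowns of 32 other genes and untransfected cells from Day00 to Day06. The 3 replicates are separate transfections sequenced in 3 pools, and the sources used here do not say whether they came from separate cell preparations, so p-values measure the spread between these libraries. In such bulk RNA, fewer cells of a type and less RNA per cell cannot be told apart.

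Phf1 encodes one of the Polycomb-like proteins, with Mtf2 and Phf19. They bind Polycomb repressive complex 2 (PRC2), which methylates lysine 27 of histone H3 through Ezh2 or Ezh1 with the core subunits Eed and Suz12, a mark found at silent developmental genes such as the Hox clusters. Jarid2 is another accessory subunit of PRC2, and Cbx7 belongs to PRC1, the companion complex that reads the mark.

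The guide strands are shown because they define the knockdown and the seeds by which an siRNA could pair with other transcripts. The library table at hand lists 2 siRNAs against Phf1; any further siRNA of the pool was not analysed here. Guides are written 5′ to 3′ with the seed, bases 2 to 8, in capitals.
siRNA 64961 guide: cAGAAACUgggaaucgucctc
siRNA 186645 guide: cCCUGAAAugaaacggucctt
The first guide is complementary to coding sequence in exon 3 of Phf1, at chr17:26934492-26934510 on the plus strand of GRCm38, in 7 of 7 annotated transcripts. The second pairs across exons 10 and 11, at chr17:26936186-26936191 and chr17:26936287-26936299, in 6 of the 7. No other annotated gene held either complete site. Matches to the 2 seeds, AGTTTCT and TTTCAGG in the sense direction, were searched in annotated 3′ untranslated regions, where 33.7% of 2397 tested genes held at least 1. Of called genes with such a region, 3 of 11 lower than in nt held one (Bzw2, Ncl and Zfp638), and of those higher 2 of 12, among them Tcf4. A match is a description of letters, not a site.

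The targeted transcript could not be read at this depth. Phf1 (chr17:26933052-26937908) had 0 counts in every siPhf1, nt and Mock library used. It had 3 counts over the 103 other transfected libraries, from which 0.0837 counts were expected in siPhf1. The 260153 counts of siPhf1 allow up to 3 counts of Phf1, or 11.5 CPM, and no fold was computed. The knockdown is therefore known from the labels and was not checked here. siPhf1 libraries held 73739, 73083 and 113331 counts, nt libraries 75100, 80136 and 143156, and Mock libraries 38925 to 83089. Levels below are CPM, in which counts are scaled by the TMM-adjusted total of the 3013 genes that passed a low-count filter. Fibroblast markers summed to 2643 to 3096 CPM in siPhf1 with none of the 10 at 0, beside a mean of 6272 CPM in untransfected Day00 cells. Pdgfra and Pdgfrb had only 4 and 2 counts in siPhf1.

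The other Polycomb genes were low. Of 5 tested Polycomb-like and PRC2 genes edgeR and DESeq2 each called 0 in siPhf1 against nt. In edgeR 2 (Mtf2 and Suz12) had an unadjusted p under 0.05, beside 363 of all 3013 tested genes. Mtf2 had 8, 15 and 13 counts in nt and 13, 12 and 26 in siPhf1, with overlap (log2 fold change 0.73 ± 0.36, SE; edgeR adjusted p = 0.394). Phf19 had 0 counts in both groups. Suz12 had 19, 15 and 29 counts in nt and 7, 11 and 10 in siPhf1, so that the 3 siPhf1 libraries were lowest (log2 fold change -0.91 ± 0.38; edgeR adjusted p = 0.265). Ezh2, the methyltransferase, had 25 counts over nt and 16 over siPhf1 (edgeR adjusted p = 0.828). Rbbp4 and Rbbp7, histone-binding subunits, had 58 and 21 counts in nt and 57 and 17 in siPhf1. Eed, Aebp2, Jarid2, Epop and Ezh1 did not pass the filter, with 17, 17, 8, 5 and 2 counts in nt and 8, 5, 7, 3 and 3 in siPhf1. Of the PRC1 genes, the ubiquitin ligase gene Rnf2 had 35 counts in nt and 29 in siPhf1, Pcgf3 10 and 15, and Cbx6 10 and 12. Of 39 Hox genes 2 passed, Hoxb9 with 8 counts in nt and 8 in siPhf1 and Hoxc8 with 13 and 13, and 16 had no count in either group. Of 43 developmental regulators and cell cycle inhibitors known as Polycomb targets 1 passed, Wnt5a, with 10 counts in nt and 11 in siPhf1. Among those that did not pass, the homeobox gene Irx3, named after its values were seen, had 0, 2 and 0 counts in nt and 7, 3 and 2 in siPhf1. This is a ratio of 6.88 (exact 95% interval for counting error, 1.53 to 63.3), and Irx3 had 5 counts over Mock. In a fit that also held genes below the filter Irx3 was not called (edgeR adjusted p = 0.211). Some genes of both lists went the other way, among them Hoxc10 with 9 counts in nt and 1 in siPhf1 and Lhx9 with 5 and 0. Both were also named after their values were seen. A change in most genes of both lists was not detectable at this depth.

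In siPhf1 against nt, most of the genes called higher were ribosomal protein genes or copies of them, although most ribosomal genes were not called, while nucleolin (Ncl) and 4 of 6 tested pseudogene copies of nucleophosmin (Npm1) fell. edgeR called 58 of 3013 genes (1.92%), 35 higher (1.16%) and 23 lower (0.763%) at an adjusted p under 0.05. Of the genes called higher, 22 (62.9%) were ribosomal protein genes or copies of them, beside 351 of the tested genes (11.6%). Copies, nearly all processed pseudogenes, made up 28 of the 56 called genes with an annotated transcript (50%), beside 478 of 2965 tested (16.1%). Reads of a copy and its parent are hard to tell apart, so which locus gave these counts is uncertain and was not tested. The libraries of the groups did not overlap for 50 of the 58, beside 13.4% of all tested genes. DESeq2 called 72 genes, edgeR without the replicate block called 9, and limma on the deposited log2 values called 0 of 10568, with 501 at an unadjusted p under 0.05. Without replicate 2 or replicate 3, 21 and 15 genes were called.

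**Figure D1:**
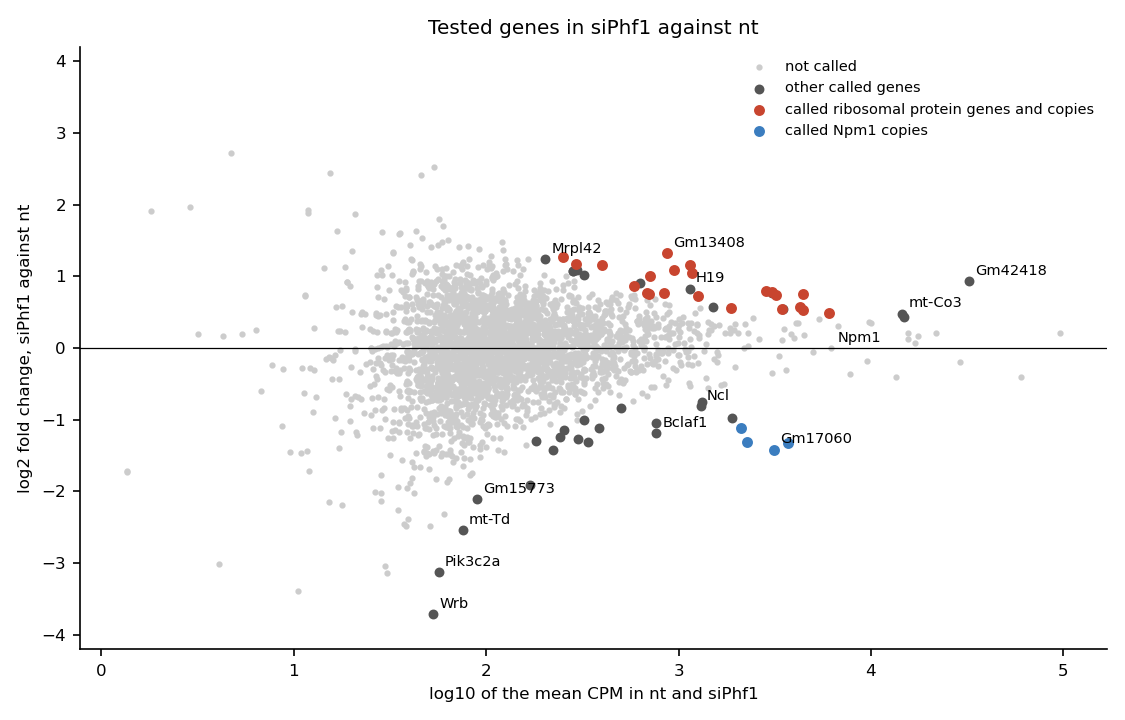
Log2 fold change of siPhf1 against nt (vertical) by mean CPM (horizontal, log scale) for 3009 of the 3013 tested genes; 3 genes without counts in these groups and 1 beyond the axis are not drawn. Called ribosomal protein genes and copies lie above 0, and the called Npm1 copies lie between -1.42 and -1.12.

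Npm1 is a nucleolar chaperone of ribosome assembly, and 4 of its processed pseudogenes fell. Gm17060 (chr6:49424061-49424884), 89.2% identical to Npm1, had 4896, 4906 and 3807 CPM in nt and 2191, 1727 and 1251 CPM in siPhf1 (log2 fold change -1.42 ± 0.19; edgeR adjusted p = 8.62e-09). Gm5611 (chr9:17030045-17030896) had 5262, 6057 and 4501 CPM in nt and 2557, 2107 and 1708 CPM in siPhf1 (log2 fold change -1.33 ± 0.19; edgeR adjusted p = 5.69e-08). Gm14776 (chrX:87771339-87772352) and Gm14681 (chrX:66778442-66778852) had log2 fold changes of -1.31 and -1.12. For each of the 4, every siPhf1 library lay below every nt library. Npm1 itself had 5729, 5997 and 6977 CPM in nt and 6435, 6164 and 6037 CPM in siPhf1, which overlapped. Counts of the 4 copies per count of Npm1 were 2.92, 2.82 and 2.03 in nt, 1.67 to 2.47 in Mock, and 1.18, 1.06 and 0.886 in siPhf1. By its mean of 1.04, siPhf1 had the next to lowest ratio of 35 transfected conditions, after siPou5f1, while nt had the next to highest. The 4 copies were picked for their calls between these groups, so both ranks follow in part from that choice. With all copies added to Npm1, the family had 22337, 22052 and 22488 CPM in nt and 14477, 12639 and 12808 CPM in siPhf1 (log2 fold change -0.75; edgeR adjusted p = 0.000932). RP24-389J11.1 and RP23-184H3.5, for which the annotation used has no entry, also fell, with log2 fold changes of -0.98 and -1.04.

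Ncl, an abundant nucleolar protein that binds pre-ribosomal RNA, had 1565, 1600.3 and 1805 CPM in nt and 887, 1036 and 946 CPM in siPhf1, without overlap (log2 fold change -0.81 ± 0.17; edgeR adjusted p = 0.000542). Its copy Gm12020 had 249.8, 179 and 359 CPM in nt and 122, 34.5 and 65.3 CPM in siPhf1 (log2 fold change -1.91 ± 0.41; edgeR adjusted p = 0.00071). Both calls were lost without replicate 3, at -0.72 for Ncl and -1.44 for Gm12020. Of 19 tested nucleolar and ribosome biogenesis genes, Ncl was the 1 called, and their median log2 fold change was -0.11 beside 0.00 for all tested genes. Fbl, a methyltransferase of ribosomal RNA, had 149.9, 179 and 212 CPM in nt and 69.6, 69.1 and 65.3 CPM in siPhf1 and missed the threshold (edgeR adjusted p = 0.0661).

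**Figure D2:**
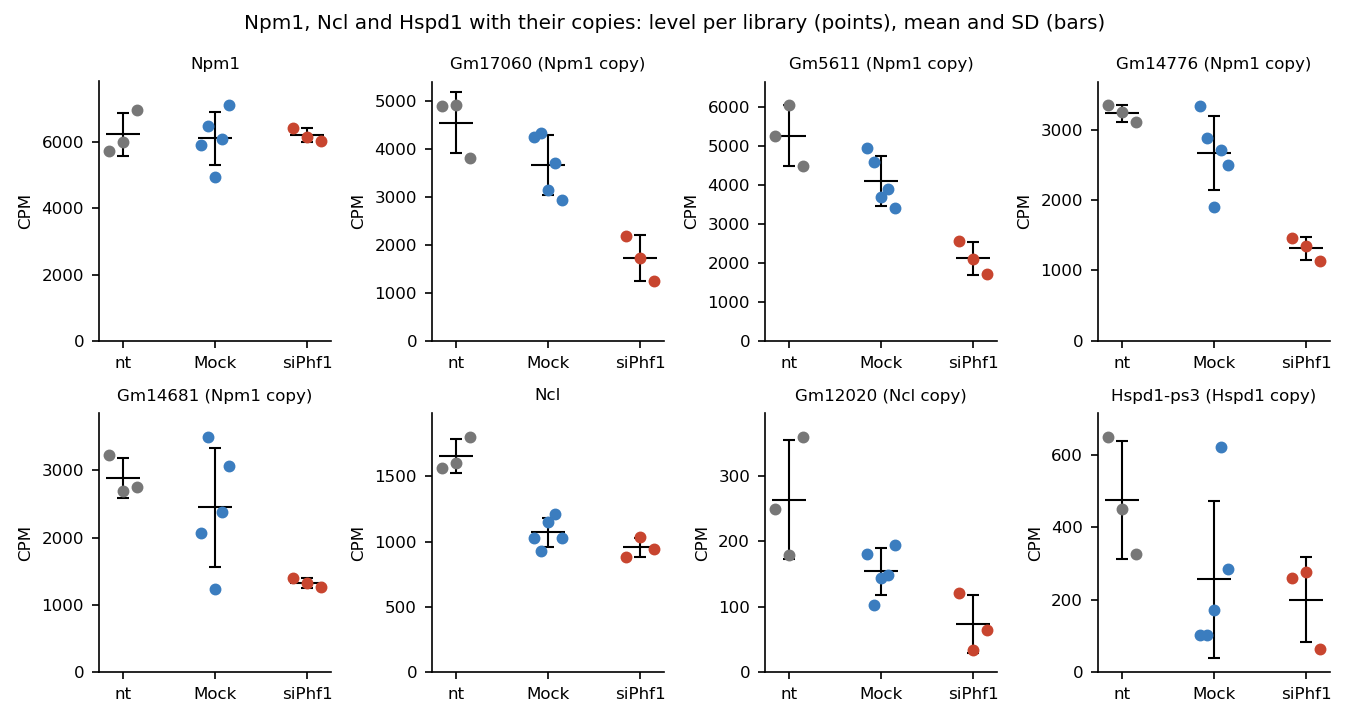
CPM per library (points) with mean and SD (bars) in 3 nt, 5 Mock and 3 siPhf1 libraries for Npm1, its 4 called copies, Ncl, the Ncl copy Gm12020 and the Hspd1 copy Hspd1-ps3. For Npm1 the groups overlap; for Ncl the siPhf1 libraries lie below nt, and the Mock libraries, at 927 to 1216, lie near siPhf1.

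Protein-coding genes other than Ncl fell as well. Dnttip2, a nucleolar protein, had 199.8, 329 and 433 CPM in nt and 122, 104 and 141 CPM in siPhf1 (log2 fold change -1.43 ± 0.35; edgeR adjusted p = 0.00726). Bclaf1, a nuclear factor linked to transcription and RNA processing, had 866, 1361 and 956 CPM in nt and 487, 518 and 402 CPM in siPhf1 (log2 fold change -1.18 ± 0.22; edgeR adjusted p = 3.96e-05). Neither overlapped between groups. Zc3h15, Zfp638, Bzw2 and the chromatin protein Dek had log2 fold changes of -1.30, -1.24, -1.11 and -1.01. Dut, which removes dUTP ahead of DNA synthesis, fell by 0.83 on the log2 scale and was the 1 called of 13 tested S phase genes, whose median was -0.39 against nt and 0.03 against Mock, where 0 were called. Smc1a, a cohesin subunit, fell by 1.14, with overlap between the groups. Without replicate 2, and likewise without replicate 3, edgeR no longer called Dnttip2, Zc3h15, Zfp638 or Dut, with log2 fold changes of -1.33 and -1.22 for Dnttip2, -1.20 and -1.34 for Zc3h15, -1.29 and -0.96 for Zfp638 and -0.77 and -1.04 for Dut. Without replicate 1, Zc3h15 and Dut were not called either.

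Low genes among those that fell rest on few counts. Pik3c2a, a phosphoinositide kinase, had 66.6, 165 and 73.5 CPM in nt and 17.4, 17.3 and 0 CPM in siPhf1 (edgeR adjusted p = 0.0127). These are 24 counts against 2, a ratio of 0.0956 (exact 95% interval for counting error, 0.0109 to 0.385). Wrb, a receptor for tail-anchored proteins, had 20 counts in nt and 1 in siPhf1, a ratio of 0.0573 (interval 0.00138 to 0.359), and its nt levels of 283, 0 and 24.5 CPM rested on replicate 1. The mitochondrial tRNA gene mt-Td had 167, 165 and 65.4 CPM in nt and 0, 34.5 and 21.8 CPM in siPhf1 (edgeR adjusted p = 0.0196). Pik3c2a was no longer called without replicate 2 or 3 (-3.14 and -2.62), and mt-Td without replicate 1, 2 or 3 (-1.86, -2.79 and -3.10).

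A further 3 copies fell whose parents edgeR did not call. Gm15773, a copy of the chromatin reader gene Psip1, had 149.9, 119.6 and 172 CPM in nt and 34.8, 17.3 and 43.5 CPM in siPhf1 (log2 fold change -2.11 ± 0.55; edgeR adjusted p = 0.0129), and Psip1 had a log2 fold change of -0.92 ± 0.37. Hspd1-ps3, a copy of the mitochondrial chaperonin gene Hspd1, fell by 1.31, beside a log2 fold change of -1.01 ± 0.31 in Hspd1 (edgeR adjusted p = 0.0559; DESeq2 adjusted p = 0.0438). Gm5391, a copy of the Ran regulator gene Ranbp1, fell by 1.27, beside -0.05 ± 0.18 in Ranbp1. With copies summed, the Psip1 and Hspd1 families were lower, at -1.21 and -1.11, and the Ranbp1 family had -0.24 ± 0.18 and was not called. Against Mock neither the Psip1 nor the Hspd1 family was called, at -1.06 ± 0.33 and -0.25 ± 0.28 (edgeR adjusted p = 0.0661 and 0.815). As single copies, Gm15773 lost its call without replicate 1, 2 or 3 (-2.11, -1.97 and -2.27), Hspd1-ps3 without replicate 1 or 3 (-1.30 and -1.02) and Gm5391 without replicate 2 or 3 (-1.09 and -0.98).

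Of 74 tested ribosomal protein genes, 7 were called higher and 0 lower, and their median log2 fold change was 0.29. Without the replicate block 0 were called, DESeq2 called 12, and leaving out each replicate left 2 to 8. Rpl34, of the large subunit, had 83.3, 59.8 and 278 CPM in nt and 365, 173 and 544 CPM in siPhf1, which overlapped although each replicate moved up (log2 fold change 1.27 ± 0.32; edgeR adjusted p = 0.00861). Rpl41 had 1665, 1735 and 3447 CPM in nt and 3426, 3212 and 4906 CPM in siPhf1 (log2 fold change 0.78 ± 0.15; edgeR adjusted p = 9.19e-05). Rpl31, Rps3a1 and Rps7 rose by 0.77, 0.72 and 0.56 on the log2 scale, each without overlap. Against Mock, Rps7 had -0.09 ± 0.15 and Rpl31 0.36 ± 0.19. Without replicate 1, 2 or 3, Rpl34 was no longer called (1.07, 1.27 and 1.87), nor was Rpl31 without replicate 2 or 3 (0.77 and 0.70).

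Among copies of ribosomal protein genes, 15 of 281 tested were called higher and 0 lower, with a median of 0.26. Gm13408, a copy of Rps3a1, had 316, 538 and 629 CPM in nt and 1130.5, 949.7 and 1664 CPM in siPhf1 (log2 fold change 1.33 ± 0.20; edgeR adjusted p = 8.33e-08), and Gm5586 and Gm7600, other copies of Rps3a1, rose by 1.15 and 1.09. Gm12090, Gm5045, Gm12174 and Rpl7-ps7, copies of Rpl7, rose by 0.75, 0.54, 0.53 and 0.48, while Rpl7 had 0.41 ± 0.14 (edgeR adjusted p = 0.130; DESeq2 adjusted p = 0.0108). When copies were added to their coding genes, 10 of 78 ribosomal protein families were called higher and 0 lower, beside 1.27% of 2604 genes and families called in either direction. The Rps3a1 family had 3026, 2863 and 5111 CPM in nt and 6269.9, 4964 and 10639 CPM in siPhf1 (log2 fold change 0.98; edgeR adjusted p = 2.07e-06). The Rpl41 family had 4539, 4322 and 8399 CPM in nt and 8471, 7251 and 12328 CPM in siPhf1 (log2 fold change 0.72; edgeR adjusted p = 0.000287). Against Mock they had 0.32 ± 0.14 and 0.60, and the former was not called (edgeR adjusted p = 0.277). Between siPhf1 and nt the libraries overlapped in both families, while each replicate was higher in siPhf1. The Rpl31 and Rps7 families had 0.47 ± 0.17 and 0.45 ± 0.15 and were not called (edgeR adjusted p = 0.172 and 0.121). The call of the single copy Gm7600 was lost without replicate 3, at 0.90.

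**Figure D3:**
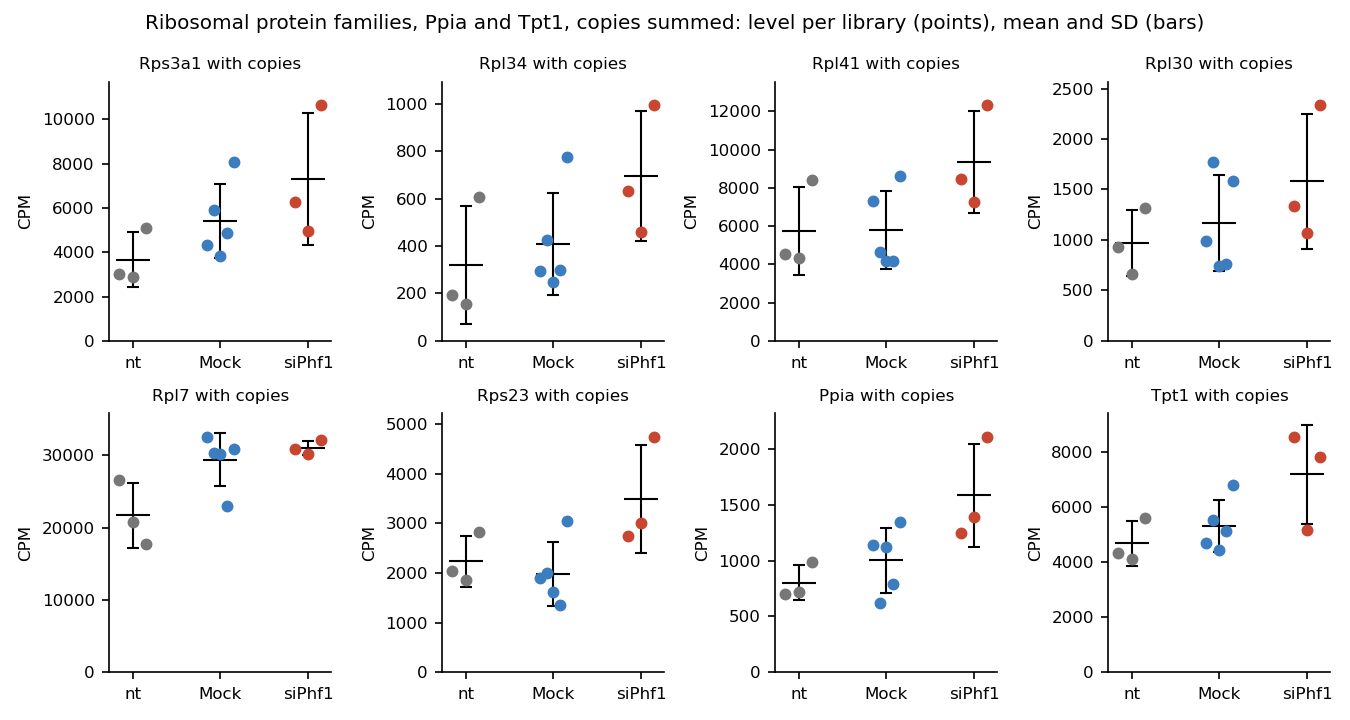
CPM per library (points) with mean and SD (bars), copies summed, for ribosomal protein families, Ppia and Tpt1 in 3 nt, 5 Mock and 3 siPhf1 libraries. For Rpl7 and Ppia all siPhf1 libraries lie above nt, and for Rpl7 the Mock libraries, at 23036 to 32599, overlap with siPhf1.

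Genes outside the ribosome rose as well. Tpt1, the translationally controlled tumour protein, had 2098, 1914 and 2778 CPM in nt and 4696, 2676 and 4144 CPM in siPhf1, with overlap (log2 fold change 0.77 ± 0.15; edgeR adjusted p = 0.000145). Mrpl42, of the mitochondrial ribosome, had 117, 89.7 and 147 CPM in nt and 243, 294 and 326 CPM in siPhf1 (log2 fold change 1.24 ± 0.34; edgeR adjusted p = 0.0242). Atpif1, an inhibitor of the mitochondrial ATP synthase, rose by 1.08, Ppia, cyclophilin A, by 0.91, Eif3m, of initiation factor 3, by 1.07 and its copy Gm7658 by 1.08. The transcription factor gene Tcf4 rose by 1.03, with 209, 777 and 326 CPM in siPhf1 and 133, 269 and 212 CPM in nt, which overlapped. H19, an imprinted noncoding RNA, had 849, 1092 and 539 CPM in nt and 1444, 1951 and 979 CPM in siPhf1, which overlapped between groups although each replicate moved up (log2 fold change 0.83 ± 0.23; edgeR adjusted p = 0.0244). It was the 1 called of 11 tested imprinted genes, and DESeq2 called 0. mt-Co3, of cytochrome oxidase, rose by 0.48, as did Gm28437, Gm13340 and Gm28661, copies of mt-Co3, mt-Co1 and mt-Co2, by 0.43, 0.54 and 0.57, while Gm11407, a copy of mt-Nd5, fell by 0.75. With copies summed, the mt-Co3 family was called (log2 fold change 0.52; edgeR adjusted p = 0.0105), while mt-Co1, mt-Co2 and mt-Nd5 had 0.27 ± 0.13, 0.52 ± 0.15 and -0.36 ± 0.14 and were not (edgeR adjusted p = 0.406, 0.0554 and 0.259). Without replicate 2 Tcf4 had 0.61 (edgeR adjusted p = 0.712), and without replicate 3 Eif3m had 0.69 (edgeR adjusted p = 0.632) and Gm7658 0.80 (edgeR adjusted p = 0.551). None of the 3 was called without replicate 2 or without replicate 3, nor were H19 (0.85 and 0.80), mt-Co3 (0.43 and 0.48) and Gm28437 (0.37 and 0.41). Mrpl42, Atpif1, Gm13340 and Gm11407 lost their calls without replicate 1, 2 or 3. Their log2 fold changes were then 1.12 to 1.36, 1.05 to 1.14, 0.50 to 0.63 and -0.81 to -0.64. Gm28661 lost its call without replicate 1 or 3 (0.55 and 0.39).

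Library composition and transcript length moved with these differences. Gm42418, a noncoding gene that overlaps ribosomal RNA sequence, took 3.53, 3.59 and 2.96% of all counts in siPhf1 and 1.74, 2.10 and 1.70% in nt, and 0.990% to 2.30% in Mock. Its log2 fold change was 0.94 ± 0.18 against nt (edgeR adjusted p = 0.00014) and 0.98 ± 0.16 against Mock. By mean CPM siPhf1 ranked 3 from the highest of 35 transfected conditions, and untransfected Day03 cells, at 43816 CPM, lay above its 42369.9 CPM. Mitochondrial transcripts took 21.0% to 26.1% of counts in siPhf1 and 22.8% to 26.3% in nt. When genes were split into 3 equal groups by transcript length, the shortest group, with a median of 798 bases, had a median log2 fold change of 0.19, with 31 genes called higher and 8 lower. The longest group, with a median of 5498 bases, had a median of -0.15, with 1 called higher and 5 lower. Over 10 equal groups, the shortest had a median of 0.24, or 0.15 without ribosomal protein genes and copies, and the longest -0.15. The part of length and of the Gm42418 share in the ribosomal result was not tested.

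**Figure D4:**
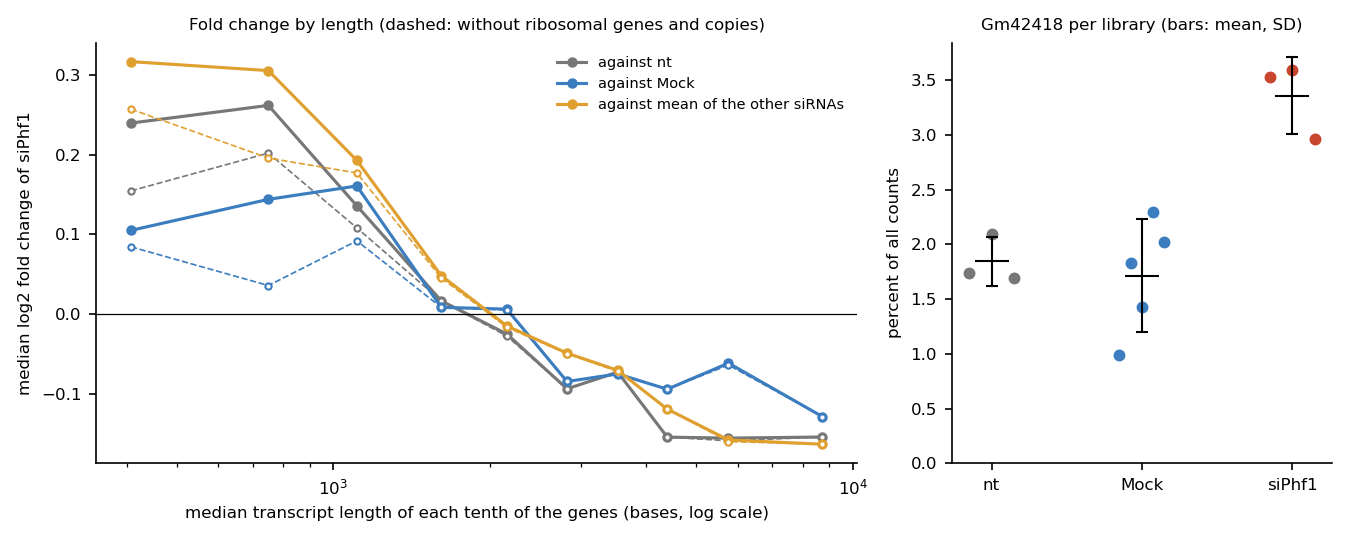
Left, median log2 fold change of siPhf1 in 10 equal groups of tested genes by transcript length (log scale), against nt, Mock and the other siRNAs, with dashed lines that leave out ribosomal protein genes and copies; against nt it runs from 0.24 to -0.15. Right, Gm42418 as a percent of counts per library with mean and SD; the siPhf1 libraries, at 2.96 to 3.59, lie above all nt and Mock libraries.

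The same siPhf1 libraries were set against Mock, so values are given side by side with those against nt. edgeR called 58 of 3013 genes (1.92%), 30 higher (0.996%) and 28 lower (0.929%) against Mock, and 47 of 3013 genes (1.56%), 31 higher (1.03%) and 16 lower (0.531%) in Mock against nt. Of the 58 genes called against nt, 16 were called against Mock as well, 37 kept their sign without a call and 5 had the other sign, also without a call. The Npm1 copies Gm17060, Gm5611, Gm14776 and Gm14681 were lower against Mock too, with log2 fold changes of -1.07, -0.92, -1.01 and -0.88 (edgeR adjusted p from 8.91e-06 to 0.000619). Gm17060 had 2926 to 4326 CPM in Mock with a median of 3699, above every siPhf1 library, whereas Gm14681 overlapped. Rpl41 rose against Mock by 0.63, and Gm15773 fell by 2.18. Pik3c2a had 51.6 to 144 CPM in Mock, above every siPhf1 library (edgeR adjusted p = 0.0279).

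Other differences from nt were not called against Mock. Ncl had 927 to 1216 CPM in Mock and a log2 fold change of -0.16 ± 0.17, and Mock was itself below nt, at -0.65 (edgeR adjusted p = 0.00723). Gm13408 had 903 to 1567 CPM in Mock, the range of siPhf1, and a log2 fold change of 0.03 ± 0.17. Mrpl42 had 248 to 309 CPM in Mock and 0.04 ± 0.30. The genes with the other sign were Rps7, mt-Co3, Gm28437 and the Rpl7 copies Gm5045 and Rpl7-ps7, with log2 fold changes from -0.12 to -0.00. Gm12174, a further Rpl7 copy, had 0.03 ± 0.13, and Mock itself was called above nt for Gm5045, Gm12174 and Rpl7-ps7, at 0.57, 0.51 and 0.49. The Rps3a1 copies Gm5586 and Gm7600 had 0.26 ± 0.17 and 0.25 ± 0.18 against Mock, which was itself above nt, at 0.89 and 0.85. Bclaf1 had -0.52 ± 0.23 (edgeR adjusted p = 0.285), with overlap, and Mock was below nt, at -0.67 (edgeR adjusted p = 0.0493). Bzw2, Smc1a, Dek, Tpt1 and Ppia had -0.33 ± 0.29, -0.23 ± 0.39, -0.61 ± 0.31, 0.44 ± 0.14 and 0.55 ± 0.22. Further genes that were not called had log2 fold changes of smaller size against Mock than against nt, a difference that was not tested. Eif3m, its copy Gm7658, Tcf4, Atpif1, H19 and Rpl34 had 0.49, 0.40, 0.48, 0.62, 0.28 and 0.95, and the Eif3m family 0.51 ± 0.22. Dnttip2, Zc3h15, Zfp638, Dut and Wrb had -0.70, -0.75, -0.25, -0.22 and -1.60, and the copies Gm12020, Gm5391, Hspd1-ps3 and Gm11407 -1.16, -1.02, -0.53 and -0.28. The copies Gm12090, Gm13340 and Gm28661 had 0.29, 0.23 and 0.16. Of the 10 ribosomal protein families called higher than in nt, 4 were called higher than in Mock.

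**Figure D5:**
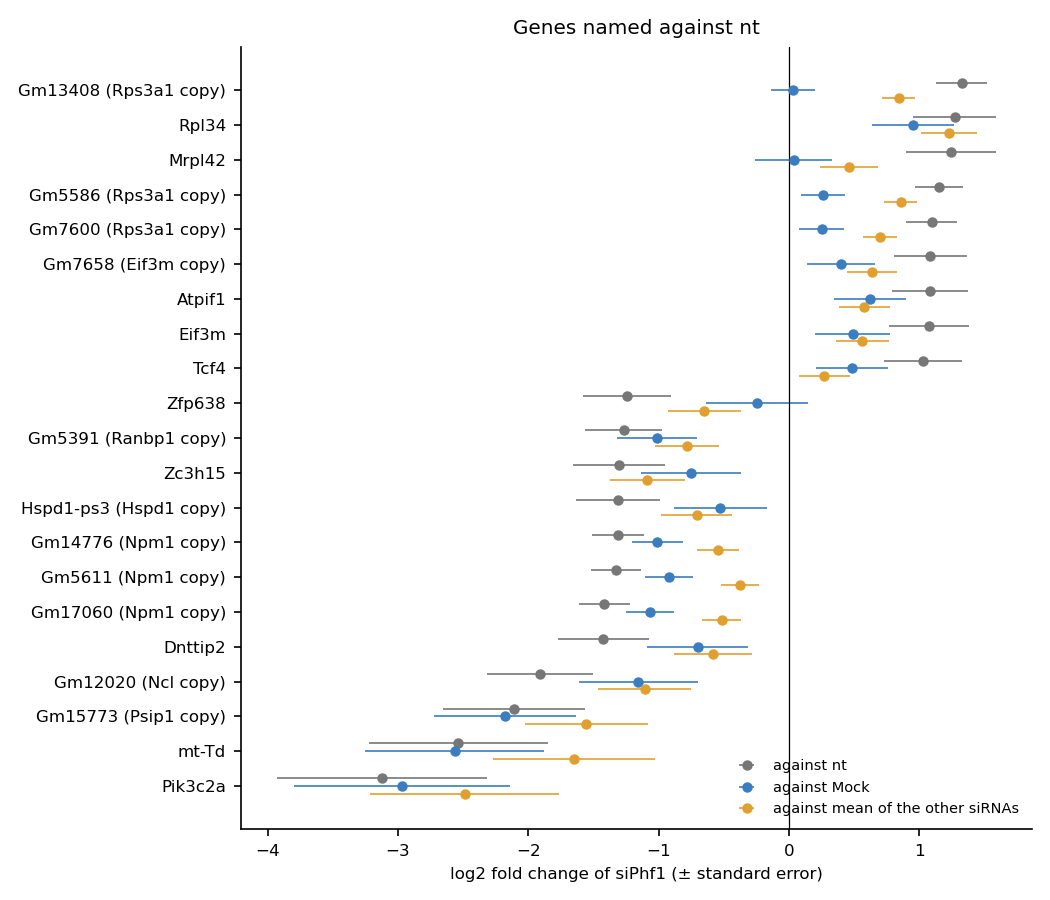
Log2 fold change of siPhf1 with SE (horizontal) against nt, Mock and the other siRNAs for genes named against nt, lowest to highest. Gm13408 and Mrpl42 lie at 1.33 and 1.24 against nt and at 0.03 and 0.04 against Mock, while Gm15773 lies at -2.11 and -2.18.

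Further genes were named from the comparison with Mock. Farsb, of phenylalanyl-tRNA synthetase, had 296, 363 and 468 CPM in siPhf1 and 115 to 149 CPM in Mock (log2 fold change 1.51 ± 0.34; edgeR adjusted p = 0.00145), beside 316 to 404 CPM in nt. Lxn, a carboxypeptidase inhibitor, had 87.0, 104 and 87.0 CPM in siPhf1 and 3 counts over Mock, a ratio of 6.43 (interval 1.89 to 33.9). Cmtm7 and Gm14760, a Gapdh copy, rose by 1.98 and 1.86. Sesn3, a stress-inducible regulator of TORC1, had 52.2, 34.5 and 0 CPM in siPhf1 and 51.6 to 209 CPM in Mock (log2 fold change -2.30 ± 0.63; edgeR adjusted p = 0.0235), and Gm10722 fell by 2.17. Of mitochondrial transcripts, mt-Nd4l, mt-Atp8, mt-Rnr1 and mt-Td were called lower, at -1.32, -1.58, -0.51 and -2.57. Of ribosomal protein genes 5 of 74 were called higher (among them Rpl19, Rpl41, Rpl6 and Rps4x) and 0 lower, with a median of 0.30. The count of called genes was 22 without the replicate block, 22 without replicate 2 and 19 without replicate 3.

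The mean of the other siRNAs gave a reference with transfected siRNA and without nt or Mock. edgeR called 172 of 3013 genes (5.71%), 135 higher (4.48%) and 37 lower (1.23%), but 25 without the replicate block and 46 to 109 when each replicate was left out. Of ribosomal protein genes 24 of 74 were called higher and 0 lower, and of their copies 49 of 281 higher and 0 lower. Their medians were 0.37 and 0.36, beside 0.03 over all tested genes. Among the 35 transfected conditions siPhf1 had the highest mean level of the Rpl41, Rps23 and Tpt1 families. The Rps23 family had 2747, 2999 and 4744 CPM in siPhf1 and rose by 1.01 (edgeR adjusted p = 2e-14), and the Ppia family rose by 1.11. Single copies with the largest rises were Gm9701 of Rps23 at 1.41, E030024N20Rik and Gm10123 of Ppia at 1.36 and 1.32, and Gm6316 and Gm14760 of Gapdh at 1.30 and 1.24.

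The Npm1 copies differed less in size from the other siRNAs than from nt, which was not tested. Gm17060 and Gm14776 had log2 fold changes of -0.52 and -0.55, while Gm5611 and Gm14681 had -0.38 ± 0.15 and -0.39 ± 0.15 and were not called. Npm1 itself rose by 0.34, and the summed family had -0.07 ± 0.11 (edgeR adjusted p = 0.867). Ncl fell by 0.51. Sesn3 fell by 1.77. Pik3c2a and Gm4617, a copy of Ptma, were called lower (edgeR adjusted p = 0.0218 and 0.0337), and Gm4617 had 3 counts in siPhf1 and 22 in nt.

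Of 30 tested matrix and mesenchymal genes 2 were called higher than in the other siRNAs and 2 lower, with a median of -0.26, beside 4.48% and 1.23% of all tested genes. Of 18 contractile genes 0 were called higher and 2 lower, with a median of -0.40. Lum and Dcn, small proteoglycans of fibroblast matrix, had 800.0, 691 and 577 and 557, 449 and 522 CPM in siPhf1 and rose by 1.13 and 1.06 (edgeR adjusted p = 4.8e-05 for Lum). Thbs1, thrombospondin, Acta2, smooth muscle actin, and Cnn3, a calponin, were lower, at -0.84, -1.53 and -1.39. Loxl1, a lysyl oxidase, had 1 count in siPhf1 and 14 in nt (edgeR adjusted p = 0.0220 against the other siRNAs). Kmt2a, a histone H3 lysine 4 methyltransferase, had 2 counts in siPhf1 and 14 in nt (edgeR adjusted p = 0.0263 against the other siRNAs). Against nt, edgeR called 0 of these 7 genes, with log2 fold changes of 0.69 ± 0.30 for Lum, 0.64 ± 0.27 for Dcn and -1.41 ± 0.50 for Cnn3.

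Direct comparisons with other Polycomb siRNAs use no control libraries. Those knockdowns too are taken from the labels, and in nt Jarid2 had 8 counts and Cbx7 0. siPhf1 against siJarid2 gave 61 of 3013 genes (2.02%), 45 higher (1.49%) and 16 lower (0.531%), but 2 without the replicate block and 13 without replicate 3. Lpp, a focal adhesion protein, had 174, 155 and 131 CPM in siPhf1 and 519, 413 and 423 CPM in siJarid2 (log2 fold change -1.57 ± 0.34; edgeR adjusted p = 0.00134). Sesn3, the cytoskeletal linker Macf1, Cyb5r3 and Fndc3b were also lower, at -2.42, -2.30, -1.78 and -1.69. Gm5652, a copy of Gapdh, had 296, 432 and 239 CPM in siPhf1 and 49.4, 88.4 and 75.6 CPM in siJarid2 and rose by 2.07. Gm6905 of Rpl11, Gm9701, Gm6061 of Ppia and Rps6-ps4 rose by 1.94, 1.83, 1.78 and 1.75. For each of these 10 genes the libraries did not overlap, which follows in part from their choice as the largest called changes with 1 sign in all replicates.

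siPhf1 against siCbx7 gave 44 of 3013 genes (1.46%), 29 higher (0.962%) and 15 lower (0.498%), but 7 without the replicate block and 11 to 19 when each replicate was left out. Gm26870, a noncoding gene, had 7026, 5146 and 8245 CPM in siPhf1 and 21568, 15345 and 13369.7 CPM in siCbx7 (log2 fold change -1.27 ± 0.19; edgeR adjusted p = 3.72e-07). Cnn3 had 34.8, 51.8 and 54.4 CPM in siPhf1 and 263, 106 and 158 CPM in siCbx7, without overlap (edgeR adjusted p = 0.0336). Kmt2a had 2 counts in siPhf1 and 18 in siCbx7, a ratio of 0.108 (interval 0.0122 to 0.452). Zc3h15 and Cyb5r3 were lower, at -1.28 and -1.73, the latter with overlap. Cab39, a partner of the kinase LKB1, had 261, 207 and 76.1 CPM in siPhf1 and 0, 21.3 and 46.3 CPM in siCbx7 and rose by 2.35. Utp14a, a ribosome assembly factor, Gm5652 and the aldose reductase gene Akr1b3 rose by 2.43, 1.73 and 1.67. Pola1, of DNA polymerase alpha, had 1 count in siCbx7, and its ratio of counts was 17.5 (interval 2.77 to 731).

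With copies summed, the Rps23 family was higher in siPhf1 than in siJarid2 and siCbx7, at 1.34 and 0.89, and the Tpt1 family at 0.97 and 0.84 (edgeR adjusted p at most 0.000104). The Npm1 family did not pass the test against either, with log2 fold changes of -0.15 ± 0.16 and -0.36 ± 0.16. Of the 4 single copies called against nt, edgeR called 2 lower than in siJarid2, Gm17060 at -0.80 and Gm5611 at -0.68 (edgeR adjusted p = 0.0111 and 0.0468). Gm14776 and Gm14681 had -0.69 ± 0.22 and -0.42 ± 0.21. Against siCbx7 all 4 were lower, from -0.85 to -0.73 (edgeR adjusted p from 0.0126 to 0.0317). In both comparisons 0 of the 4 were called without the replicate block, without replicate 2 or without replicate 3, and all 4 stayed below 0.

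Genes that changed in the untransfected time course were set beside the knockdown. Of the tested genes, 321 were higher on Day06 than on Day00 (10.7%) and 347 lower (11.5%), 22.2% together. In siPhf1 against nt, the former had a median log2 fold change of 0.13, with 14 called higher and 8 lower. Chosen against Day03 instead, 239 genes higher on Day06 had a median of 0.02, with 3 called higher and 7 lower. Genes lower on Day06 than on Day00 had a median of -0.06, with 2 and 3, and the remaining 2345 genes a median of -0.01, with 19 and 12. Ribosomal protein genes summed to 23890.5 CPM on Day00 and 41014 CPM on Day06, beside 65010.3 to 85881 CPM in siPhf1 and 53467 to 67095 CPM in nt.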

How the data were processed

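Each of the 3 samples is a sequenced pool of barcoded libraries whose column names give the condition. The authors aligned CEL-Seq2 reads to mm10 (Bowtie2, GENCODE vM13) and corrected for UMIs, which gave the deposited counts; the deposited log2 values, normalized by the authors with the batch removed, entered only an alternative. Columns left unmapped numbered 0.

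Counts were fitted with edgeR 4.0.16 in R 4.3.3 (quasi-likelihood test, TMM, filterByExpr by condition, terms for condition and replicate, 83 residual degrees of freedom, common dispersion 0.0158) and Benjamini-Hochberg adjustment over all tested genes. SE is the log2 fold change over the root of the F statistic. A replicate number marks a sequenced pool in the labels, and siPhf1 and nt libraries of 1 number deviated together (r of 0.117, 0.168 and 0.305), which is why a replicate block stayed in the fit. Replicates of a group differed by more than sampling noise. Copies were matched to coding genes with blastn 2.17.0 (at least 85% identity over 50% of their length); positions and transcripts are from GENCODE vM21 on GRCm38. Intervals and floors cover counting error only.

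Members and lists were chosen with earlier results of these data known. Named genes were the 12 largest called changes in each direction against nt, and 5 in each other comparison, with at least 50 CPM and 1 sign in all replicates, Polycomb genes, and up to 4 called members per list. Other genes, among them Bclaf1, Dek, Bzw2, Smc1a, Wrb, Fbl, Tpt1, Ppia, Gm42418, Rps3a1, Rps7, Dcn, Acta2, Ifitm1, L1td1, Cox8a, mt-Nd4l, mt-Atp8, RP24-389J11.1, RP23-184H3.5, 7 markers of other cell types, further called copies and ribosomal protein genes, and parents of copies, were named after their values were seen. Alternatives were DESeq2 1.42.0, limma 3.58.1 on the log2 values, other scaling, filters and library sets, no block and each replicate left out. Copies summed and Mock in place of nt were added after seeing the data. Results of some genes and of 1 further comparison are not reported here.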

Additional observations from a re-analysis of the deposited data

Results flagged for a closer look

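Of the 5 Mock libraries used, that of replicate 3 held 83089 counts, apart from the other 4 at 38925 to 49873. Replicate 3 was deeper in nt and siPhf1 too, with a median of 127079 counts per library over all conditions beside 64227 and 63122 in replicates 1 and 2. The gap to the nearest was 0.752 of the whole range. With 25 such measures examined in Mock, about 1 in 20 would stand apart by chance.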

How the results depend on the processing

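Calls against nt, 58 genes, were 73 with RLE size factors, which kept all 58, and 72 with DESeq2, but 0 with limma, 26 with no filter on low counts and 33 with copies summed, where fewer features are tested. For siPhf1 against Mock (58), the other siRNAs (172), siJarid2 (61) and siCbx7 (44), limma called 6, 10, 22 and 2 and no filter left 34, 69, 25 and 18. DESeq2 called 94 against siJarid2, and copies summed gave 27 against siCbx7. Without the replicate block, counts fell to 9, 22, 25, 2 and 7 against nt, Mock, the other siRNAs, siJarid2 and siCbx7. Leaving out each replicate gave 15 to 55 against nt, 19 to 48 against Mock, 46 to 109 against the other siRNAs, 13 to 49 against siJarid2 and 11 to 19 against siCbx7. Of 34 called genes named against nt, 34 kept their call with RLE size factors, 7 without the block, 7 without replicate 3 and 0 with limma. With Mock in place of nt, mt-Co3 and Gm28437 reversed, to -0.0756 and -0.123. Genes higher on Day06 had a median of 0.0186 when chosen against Day03 instead of Day00. The cause of these changes was not tested, and the alternative expectation of Phf1 from nt alone gave no value, since nt had 0 counts.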

Other observations

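Interferon-stimulated genes summed to 1704, 1312 and 1262 CPM in siPhf1, 949, 927 and 1078 CPM in nt and 645 to 985 CPM in Mock. siPhf1 did not overlap with either control and had the highest mean of the 35 transfected conditions, at 1426 CPM. Untransfected cells lay as high or higher on some days, with means of 2077 CPM on Day00, 1708 on Day03 and 1466 on Day06. Of 30 such genes 5 passed the filter and edgeR and DESeq2 each called 0 against nt, with 0 at an unadjusted p under 0.05, while Ifitm1 rose against the other siRNAs by 0.77 (edgeR adjusted p = 0.0491). Ifit1, Ifit3 and Rsad2 had 5, 5 and 7 counts in siPhf1 and 4, 0 and 1 in nt, and their siPhf1 levels were highest in replicate 1, at 87.0, 69.6 and 69.6 CPM. Sums of other lists, among them pluripotency genes, glycolysis enzymes and nucleolar genes, did not overlap between siPhf1 and nt either.

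Pluripotency genes summed to 69.6, 276 and 196 CPM in siPhf1, 483, 404 and 286 CPM in nt and 269 to 413 CPM in Mock, where siPhf1 lay lowest in replicate 1, and the 1 tested, L1td1, was not called (log2 fold change -1.47 ± 0.73; edgeR adjusted p = 0.397). edgeR called 0 genes against nt among 30 tested matrix and mesenchymal genes, 26 translation factors, 25 mitosis genes, 24 splicing factors and 50 nuclear respiratory chain genes, and DESeq2 called 1, Cox8a. In edgeR 4, 1, 5, 2 and 8 of them had an unadjusted p under 0.05, beside 363 of all 3013 tested genes. Median log2 fold changes of these lists, in the same order, were 0.07, -0.17, -0.03, -0.22 and 0.28. Summed markers of macrophages, endothelium and skeletal muscle lay at 17.4 to 69.1, 0 to 51.8 and 10.9 to 17.4 CPM in siPhf1 and at 16.7 to 44.9, 0 to 33.3 and 0 to 8.17 CPM in nt, with Cd68, Adgre1, Pecam1, Cdh5, Myod1 and Myog at 0 in both. Keratinocyte, neural and adipocyte markers lay at 500.4 to 626, 157 to 276 and 34.5 to 69.6 CPM in siPhf1 and 466 to 643, 209 to 316 and 66.6 to 89.9 CPM in nt, with Krt5, Krt14, Trp63, Sox10, Gfap, Adipoq and Plin1 at 0 in both. The keratinocyte sum came mostly from Fgfbp1, Perp and Krtdap, with 64, 26 and 19 counts in siPhf1 and 69, 33 and 24 in nt. The neural sum came mostly from Stmn2, Tubb3 and Gap43, with 26, 7 and 6 and 19, 24 and 12, and the adipocyte sum from Lpl, with 10 and 18. edgeR called none of the 7 against nt.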
